A study of Mus musculus with 3 samples.

Results

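Cd34+ early thymic progenitor-like cells were taken from 3 single-cell RNA-seq libraries of mouse thymocytes by a rule on raw UMI counts (molecules counted once through their molecular identifier). A cell was a member when it held at least 1 Cd34 UMI, at least 1 UMI over Mef2c, Lmo2 and Flt3 together, and 0 UMIs of Trac and Cd79a, the constant chain of the αβ T cell receptor and a B cell receptor component. Of 21879 cells that passed the limits on cells (500 to 5000 detected genes and at most 7% of UMIs on mitochondrial genes), 333 met the rule, and 23283 cells were deposited. The first run held 6 members among 5516 kept cells, the second run 134 among 8852 and the third run 193 among 7511.

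Early thymic progenitors are the rare, Kit-bearing cells of the double-negative 1 (DN1) stage in the thymus that descend from bone marrow progenitors and still hold some potential for lineages other than T cells. Notch signaling and the factors Tcf7 and Gata3 begin the T cell program in them, surface CD25 (encoded by Il2ra) marks entry into DN2, and the arrival of Bcl11b marks T cell commitment. PU.1 (encoded by Spi1), Lyl1 and Hhex are among the progenitor regulators that are turned off along this path, which ends at DN3 with the pre-T cell receptor.

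All libraries came from thymi of C57BL/6 mice, pooled from 4 animals, with the age labelled as week 6 and given as 6 to 8 weeks in the protocol, and without any treatment or engineered allele. DN1 and DN2 cells alone were loaded in the second run. In the first run they were part of the total double-negative cells, with TCRγδ+ cells beside them. The third run was a mix of separate sorts: DN1 with DN2, DN3, and TCRγδ+ cells. Cells bearing B220, CD11b, CD11c, NK1.1, TCRβ, CD4 or CD8 were gated out on surface protein. Each sort was made once, so the runs are not replicates of each other, no test between groups of cells was possible, and every value below is a description.

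Over all deposited cells the total was 39947415 UMIs for the first run, 52797915 for the second and 98533329 for the third. Members were deeper than the rest of their run, with a median of 8669 UMIs against 4779 in the second run and 16148 against 8369.5 in the third. In the first run the medians were 8958.5 and 5978.5 UMIs. The first and second run shared 72 cell barcodes, 2 of them carried by a member, the first and the third run shared 3, and the second and the third run shared 0. Levels are given as CPM, that is the UMIs of a gene per 1000000 UMIs summed over the cells of a group, with exact Poisson 95% intervals, and shares of cells carry exact Clopper-Pearson 95% intervals. Both cover counting error and not the spread between animals or sorts.

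Members made up 0.109% of kept cells in the first run (0.0399 to 0.237%), 1.51% in the second (1.27 to 1.79%) and 2.57% in the third (2.22 to 2.95%). The share was lowest in the first run, where total double-negative and γδ cells were loaded. It was higher in the third run, which also held DN3 and γδ cells, than in the second run of DN1 and DN2 cells alone. When every cell was thinned to 2000 UMIs before the rule was applied, 0 of 5516 cells, 30 of 8852 and 31 of 7463 met it, shares of 0%, 0.339% (0.229 to 0.483%) and 0.415% (0.282 to 0.589%). The second and the third run therefore had overlapping intervals at equal depth, while the first run stayed lowest, with an upper bound of 0.0669%. The sort and the library cannot be told apart.

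**Figure D1:**
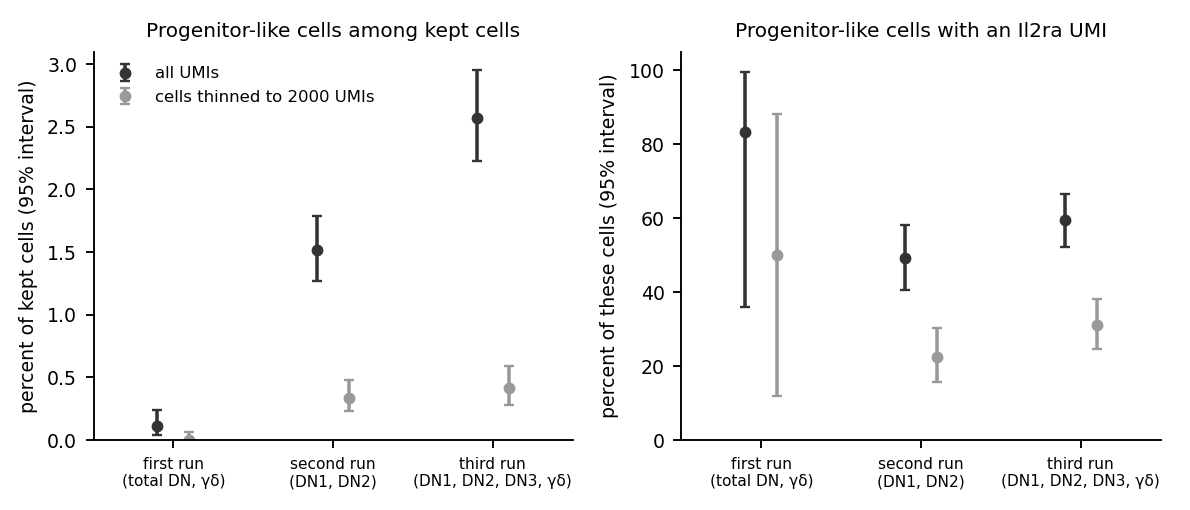
Shares by run, with the percent of kept cells that met the rule on the left and the percent of these progenitor-like cells with an Il2ra UMI on the right; points are shares and bars exact 95% intervals, before (dark) and after (grey) thinning each cell to 2000 UMIs. At equal depth the shares of members in the second and the third run were 0.339% and 0.415%, and the first run, with 6 members, has wide intervals on the right.

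Among the genes of the rule, Mef2c, a transcription factor of lymphoid and myeloid progenitors, let in most members. It was seen in 6 of 6 members of the first run, 119 of 134 in the second and 192 of 193 in the third. Lmo2, a hematopoietic adaptor of the bHLH factors, was seen in 54 members of the second run and 54 of the third. Flt3, the receptor of the earliest lymphoid-primed progenitors, was seen in 22 and 33. In the first run neither Lmo2 nor Flt3 was seen in a member, and each of the 6 members held 1 Cd34 UMI. Members with 3 or more Cd34 UMIs numbered 51 in the second run and 69 in the third.

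At the edge of the rule, cells with exactly 1 Cd34 UMI and 1 UMI over the other 3 genes (32 in the second run, 23 in the third) held Spi1 at 97.0 and 40.9 CPM and Cd3g at 579 and 791 CPM. Cells just outside it for lack of Cd34 (352 and 802) held Spi1 at 35.9 and 20.7 CPM, and cells with Cd34 but without Mef2c, Lmo2 and Flt3 (226 and 61) held it at 56.7 and 31.3 CPM. Over all members Spi1 stood at 170 and 125 CPM and Cd3g at 261 and 298 CPM. For Spi1 the cells that barely met the rule thus lay between the members at large and the cells left out. Their intervals (65.9 to 138 and 23.8 to 65.5 CPM) overlapped those of the Cd34 cells left out (47.0 to 68.0 and 20.8 to 45.2 CPM). Their Cd3g was above that of the members at large. The cells left out held Cd3g at 1945 and 1538 CPM without Cd34, and at 954 and 785 CPM with it. Other genes did not all follow Spi1. In the third run the cells that barely met the rule held Tyrobp at 50.5 CPM, below the 96.0 and 86.0 CPM of the cells left out. Their Mpo there was 33.7 CPM, against 36.9 CPM in cells without Cd34 and 20.1 CPM in cells without the other 3 genes.

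The label names Kit and Spi1 as further markers, which the rule did not use. Kit (chr5:75574916-75656722, + strand, GRCm38, with gene spans here and below from the GENCODE annotation), the receptor of stem cell factor, stood at 58.8, 68.6 and 122 CPM in members of the first, second and the third run, against 5.53, 18.1 and 24.8 CPM in the other cells. Spi1 (chr2:91082390-91115756, + strand) stood at 39.2, 170 and 125 CPM in members, against 2.54, 15.0 and 11.2 CPM. In every run both genes were higher in members, and in the second and the third run the intervals did not overlap (Kit 55.2 to 84.3 against 17.0 to 19.3 CPM, and 110 to 134 against 23.7 to 25.9 CPM). The 6 members of the first run held 3 Kit UMIs, so that fold rests on few molecules. With cells of the members' UMI quartiles alone, 2 members were left in that run. Kit was then lower in members, at 0 against 4.93 CPM.

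After thinning to 2000 UMIs, Kit was seen in 14.2% of members of the second run (8.76 to 21.3%) and 23.8% in the third (18.0 to 30.5%). In DN3-like cells, taken as cells with 2 or more Ptcra UMIs, a Rag1 UMI and no Cd34, which should lack progenitor genes, the thinned shares were 3.01% and 3.82%. Spi1 was seen in 28.4% and 23.8% of thinned members and in 1.75% and 0.355% of DN3-like cells. Before thinning the DN3-like cells had median depths of 6364 and 7840 UMIs. Not every member showed these 2 markers: 30 of 134 in the second run and 12 of 193 in the third had neither a Kit nor a Spi1 UMI. Of these, 17 and 10 had Il2ra, 14 and 11 had Bcl11b, and 19 and 12 had Trdc, the constant chain of the δ receptor. Other progenitor or myeloid genes were also seen in these members: Lyl1 in 11 and 6, Hhex in 15 and 2, Tyrobp in 19 and 3, and Mpo in 12 and 1. Their Cd3g level was 610 and 1620 CPM. Kit and Spi1 were seen together in 45 and 125 members.

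Across all genes, members were compared with the other kept cells of the same run. A gene was counted as past the limit when log2(CPM + 10) differed by at least 1, or 2-fold, in the same direction in both the second and the third run, the runs with at least 50 members. Of 9273 genes with a mean of at least 5 CPM, 107 were higher in members (1.15%) and 147 lower (1.59%), and the median difference was -0.03. The members were chosen on genes of these same cells, so these counts describe the choice and its company and support nothing further.

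Of 20 progenitor transcription factors outside the rule, 15 passed the minimum of 5 CPM, and 7 of these were past the limit upward (Spi1, Lyl1, Hhex, Bcl11a, Hoxa9, Irf8 and Nfe2) and 0 downward, with a median of 1.26. Hoxa9 and Gfi1b met the minimum only through their level in members, so that they had to be higher there. Lyl1, a bHLH factor needed by early lymphoid progenitors, stood at 97.9, 159 and 85.4 CPM in members of the 3 runs against 3.45, 19.2 and 10.7 CPM in other cells. Hhex, a homeobox factor of blood progenitors, stood at 58.8, 168 and 111 CPM against 2.36, 27.7 and 16.5 CPM. Bcl11a, a factor of lymphoid and stem cells, stood at 19.6, 110 and 152 CPM against 7.02, 15.98 and 23.6 CPM. Hoxa9, a stem and progenitor homeobox gene, stood at 36.6 and 26.5 CPM in the second and the third run against 2.34 and 1.70 CPM. Members lay above the other cells in each of these pairs, and the differences for Lyl1 and Hhex were 2.53 and 2.21, and 2.24 and 2.19.

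Irf8, which directs myeloid and dendritic fates, was past the limit as well, but 73.5% of its UMIs in members of the second run and 68.1% in the third lay in 5 cells. Myb and Runx1, 2 factors of both progenitors and T cells, did not pass the limit. Myb stood at 264 and 412 CPM in members against 271 and 407 CPM, and Runx1 at 99.1 and 257 CPM against 128 and 270 CPM. The stem cell genes Meis1 (6.10 and 6.30 CPM) and Gata2 (3.05 and 0.945 CPM) were low in members.

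**Figure D2:**
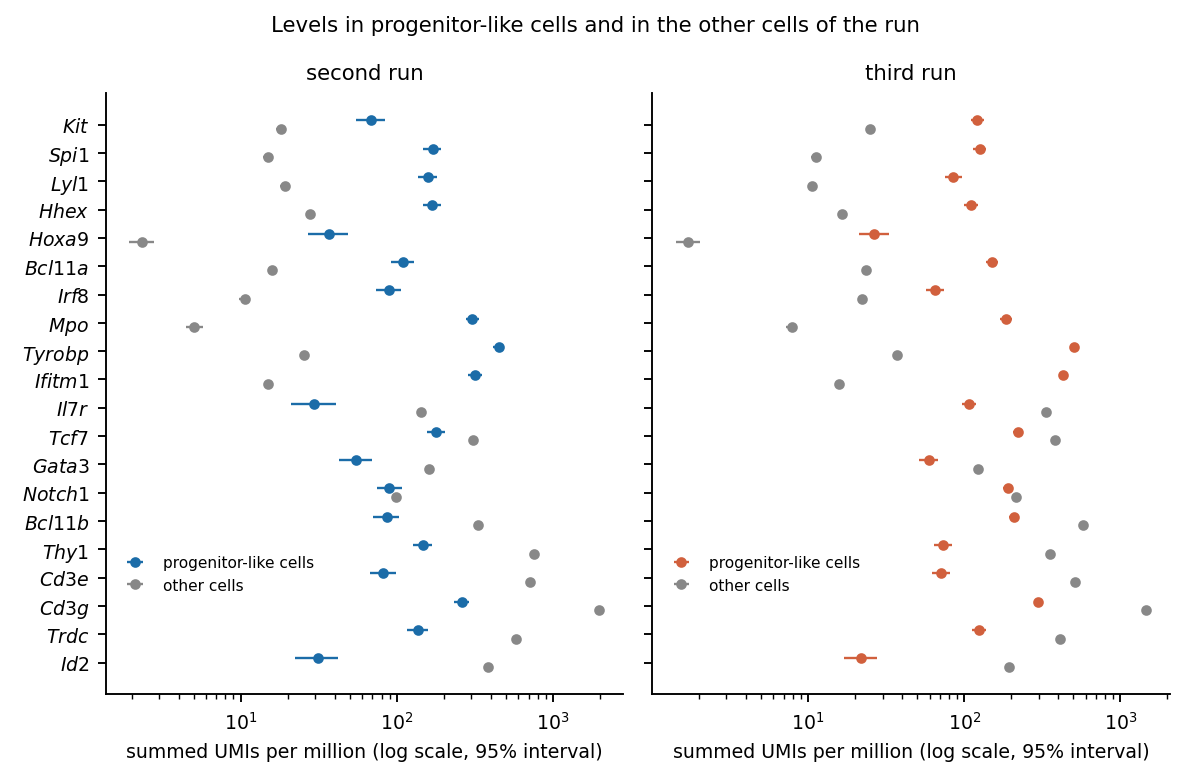
Levels of 20 named genes in the progenitor-like cells (coloured) and in the other kept cells of the same run (grey), in CPM on a log axis with exact Poisson 95% intervals, for the second run (left) and the third (right). Kit down to Ifitm1 lie to the right of the grey points in both runs, Notch1 points lie close together, and Il7r, Tcf7, Gata3, Bcl11b, Thy1, the CD3 genes, Trdc and Id2 lie to the left.

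Among genes outside the rule that were higher in members, Mpo of the granulocyte and monocyte priming list had the largest mean difference. Of the list's 16 genes 12 passed the minimum, and 6 were past the limit upward (Mpo, Elane, Prtn3, Ctsg, Tyrobp and Alox5ap) and 0 downward, with a median of 1.26. Elane, Prtn3, Ctsg, Cd63 and Ms4a3 met the minimum only through members and had to be higher there. Elane, Prtn3 and Ctsg were no longer past the limit without the members that held 2 or more of the genes Mpo, Elane, Prtn3 and Ctsg (19 in the second run, 18 in the third). That choice was made after the data were seen and uses these genes, so their loss follows from it. Mpo (chr11:87793581-87804413, + strand), the myeloperoxidase of primary granules, stood at 19.6, 306 and 185 CPM in members against 0.0503, 5.05 and 7.87 CPM in other cells. At least 1 Mpo UMI was seen in 57.5% of members in the second run and 57.0% in the third, against 0.752% and 0.621% of DN3-like cells. After thinning these shares were 28.4% and 24.4%, against 0% and 0.177%. Tyrobp, an adaptor of activating receptors, stood at 97.9, 450 and 507 CPM against 3.60, 25.3 and 37.4 CPM, and 79.9% and 79.3% of members held it. Counted without thinning, both genes were thus seen in most members, although 5 cells held 45.9% of the Mpo UMIs in the second run and 19.7% in the third. For Tyrobp no thinned or background share is given here, and members were deeper than the other cells.

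Elane and Prtn3, neighbouring genes of granule serine proteases on chromosome 10 (chr10:79886247-79888215 and chr10:79874476-79883174, + strand), behaved otherwise. Elane stood at 151 and 38.8 CPM in members of the second and the third run, but 99.5% and 100% of its UMIs lay in 5 cells. Prtn3 stood at 187 and 47.3 CPM, with 90.6% and 98.0% in 5 cells, and Ctsg, another granule protease, had 80.4% and 83.6% there. In the first run Elane and Prtn3 had 0 UMIs in the 6 members.

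All 4 of Mpo, Elane, Prtn3 and Ctsg were seen together in 6 members of the second run and 2 of the third, a set of genes picked after their values were seen. None of these 8 members had an Il2ra UMI, and each had Spi1 and Lmo2. They held 76.0% and 40.6% of the members' UMIs of the 4 genes. The 2 cells of the third run also held Lyz2, the lysozyme of myeloid cells, at 12375 CPM, against 105 CPM in the 6 cells of the second run. Ms4a3, a gene of granulocyte and monocyte progenitors, was seen in 4 of the 6 cells and 1 of the 2, and in no other member. Their median depths were 19873.5 and 21374 UMIs, above the 8669 and 16148 UMIs of all members, and 1 of the 8 was among the cells marked as possible doublets. The part of depth in this co-detection was not tested. The 15 mature myeloid and dendritic genes summed to 134 and 651 CPM in members without Il2ra, where these cells lie, against 80.5 and 111 CPM in members with it. Most of the 651 CPM was Lyz2 of the 2 cells of the third run, which held 224 and 305 of its UMIs. Among members without Il2ra there that held fewer than 2 of the 4 granule genes, Lyz2 stood at 67.3 CPM. The part of mature myeloid and dendritic cells in the granule genes was not tested.

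**Figure D3:**
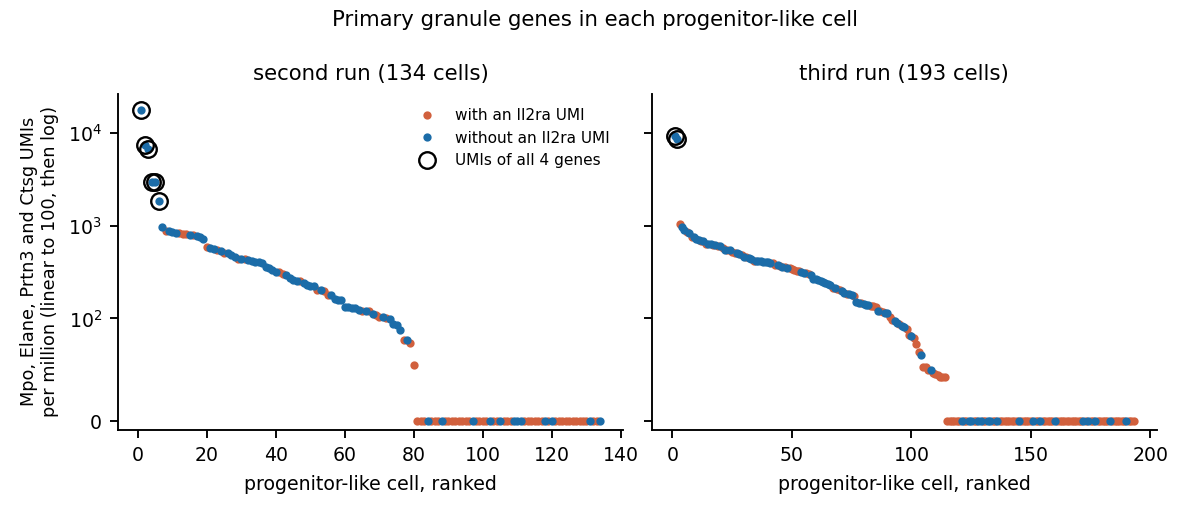
Summed CPM of Mpo, Elane, Prtn3 and Ctsg in each progenitor-like cell of the second run (left) and the third (right), ranked from high to low on an axis that is linear to 100 and logarithmic above; orange points had an Il2ra UMI, blue points did not, and circles mark the 6 and 2 cells with all 4 genes. The circled cells are the highest of their run, and 54 and 79 cells held 0 UMIs of the 4 genes.

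Beyond the members themselves, the stretch before a transcript start of 4 of these genes is shown because Mpo, Prtn3 and Elane were seen together in so few cells and Kit marks the label. The sequences are the 250 bases before the RefSeq transcript start (build GRCm38.p6, + strand), which lies inside the GENCODE span given above, in whole for Prtn3 and in part for Mpo, Elane and Kit, with capitals marking GAGGAAG, a core of the PU.1 type searched on both strands:
Mpo chr11:87793534-87793783: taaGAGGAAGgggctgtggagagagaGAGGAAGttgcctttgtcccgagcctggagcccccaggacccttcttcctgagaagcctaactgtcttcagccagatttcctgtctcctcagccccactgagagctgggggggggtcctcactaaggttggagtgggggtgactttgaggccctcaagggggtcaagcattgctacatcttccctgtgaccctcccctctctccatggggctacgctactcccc
Prtn3 chr10:79879417-79879666: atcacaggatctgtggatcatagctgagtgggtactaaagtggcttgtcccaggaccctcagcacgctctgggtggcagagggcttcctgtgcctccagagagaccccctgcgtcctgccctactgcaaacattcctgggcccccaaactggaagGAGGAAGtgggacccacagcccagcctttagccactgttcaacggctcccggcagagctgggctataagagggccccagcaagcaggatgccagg
Elane chr10:79886062-79886311: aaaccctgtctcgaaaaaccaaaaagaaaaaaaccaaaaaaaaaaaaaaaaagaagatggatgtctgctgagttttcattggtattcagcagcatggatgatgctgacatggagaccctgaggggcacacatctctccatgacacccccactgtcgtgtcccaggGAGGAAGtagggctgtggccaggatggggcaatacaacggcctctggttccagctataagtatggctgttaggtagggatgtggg
Kit chr5:75574737-75574986: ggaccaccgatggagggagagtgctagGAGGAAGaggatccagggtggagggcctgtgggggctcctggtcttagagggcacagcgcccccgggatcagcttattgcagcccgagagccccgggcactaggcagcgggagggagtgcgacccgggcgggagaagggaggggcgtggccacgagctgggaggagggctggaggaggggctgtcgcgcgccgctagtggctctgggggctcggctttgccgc
Mpo held 2 matches, starting 247 and 224 bases before the start, Prtn3 held 1 at 95 bases, Elane 1 at 85 bases and Kit 1 at 223 bases.

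Over windows of 300 bases (250 before to 50 after the start), the motif lay in 13.6% of the 32851 promoters of the RefSeq table. It lay in 4 of 8 promoters matched among the 12 genes highest in members (Mpo, Prtn3, Elane and Ier3), and in 3 of 7 of the label markers (Kit, with 2 entries 4 bases apart, and 1 of 3 of Mef2c). The GATA type AGATAAG and the RUNX type TGTGGTT, also read on both strands, lay in 3.04% and 5.27% of all promoters and in 0 of these. Of 17 genes looked for, 12 were in the table, and Car2, Lmo2, Napsa, Spi1 and Tyrobp were not searched. A match is a run of letters and not a bound site.

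Of the lymphoid priming list 11 of 13 genes passed the minimum, 0 were higher in members and 2 lower (Rag1 and Il7r), with a median of -0.77. The list summed to 1504 and 1698 CPM in members against 3340 and 2929 CPM in other cells, with Dntt, the template-free polymerase of receptor rearrangement, its most abundant gene in members (578 and 655 CPM). Of 17 cytokine receptors measured Kit was higher and 4 were lower (Il18r1, Ifngr1, Il7r and Il2rb), with Il2rb over the minimum only through the other cells.

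The other genes with the largest differences were Ifitm1, Hbb-bt, Bex6, Adgrg3, Napsa, Ier3 and Car2. Ifitm1, an interferon-induced membrane protein, stood at 157, 318 and 432 CPM in members against 0.629, 15.1 and 15.9 CPM in other cells. Adgrg3, an adhesion G protein-coupled receptor, stood at 137, 227 and 169 CPM against 6.77, 27.9 and 17.4 CPM. Ier3, an immediate early gene, stood at 71.7 and 255 CPM in the second and the third run against 14.0 and 19.2 CPM, and at 0 in the first.

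Hbb-bt, an adult β-globin gene, stood at 78.3, 575 and 387 CPM in members against 0.453, 58.2 and 27.3 CPM. Of its UMIs, 61.9% in the second run and 64.6% in the third lay in 5 cells, and the members with 5 or more (19 and 21 cells) held 96.2% and 95.3%. The companion globins did not go with it: Hbb-bs stood at 9.15 and 1.89 CPM in members and Hba-a1 at 0.762 and 0.315 CPM. Car2, a carbonic anhydrase of red cell and stem cell programs, stood at 105 and 63.3 CPM against 6.61 and 6.48 CPM.

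Among surface and homing receptors, 3 of 11 measured were higher (Kit, Cd93 and Cd81) and 2 lower (Ccr9 and Il7r). Ccr9, a chemokine receptor of thymocytes, stood at 19.6, 8.38 and 24.6 CPM in members against 70.8, 84.2 and 197 CPM. Il7r, the interleukin-7 receptor chain, stood at 29.7 and 108 CPM in the second and the third run against 142 and 333 CPM, and at 58.8 against 34.7 CPM in the first. Cd44, whose protein defines DN1, stood at 49.5 and 55.8 CPM against 29.8 and 27.2 CPM and did not pass the limit.

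T cell genes lay on the lower side. In the list of T lineage specification and commitment, 7 of 15 measured genes were lower (Bcl11b, Thy1, Ets1, Lef1, Cd28, Ptcra and Rag1) and 0 higher, with a median of -1.18. Bcl11b (chr12:107910403-108003602, - strand), the commitment factor, stood at 86.1 and 208 CPM in members of the second and the third run against 333 and 577 CPM. In the first run it stood at 450 CPM in members against 398 CPM, so the direction there was the opposite. Tcf7 stood at 179 and 221 CPM against 309 and 384 CPM and Gata3 at 54.9 and 59.2 CPM against 162 and 123 CPM. Neither passed the limit in both runs, and Tcf7, which Notch induces, was seen in 91 of 134 and 161 of 193 members.

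In the list of the CD3 complex and proximal receptor signaling, 10 of 15 were lower and 0 higher, with a median of -1.52. One of the 10, Cd2, met the minimum only through the other cells, so that it had to be lower. Cd3d stood at 57.9 and 60.8 CPM against 547 and 779 CPM, and Cd3e at 82.3 and 70.9 CPM against 720 and 510 CPM. Of the Cd3d UMIs of members, 61.8% and 39.4% lay in 5 cells. Members of the γδ T cell list (7 of 10 lower) and of the NK and innate lymphoid list (8 of 10 lower) followed the same side, and 1 of these 7 and 4 of these 8 met the minimum only through the other cells. Id2, the inhibitor of E proteins in innate lymphoid cells, stood at 31.3 and 21.7 CPM against 384 and 194 CPM. Gzma, a granzyme, stood at 18.3 and 41.0 CPM against 283 and 547 CPM. Igkc, Igha and Jchain, which had the lowest values of all against the other cells (differences of -5.21 and -5.03 for Igkc), are B and plasma cell genes, and the rule itself left out cells with Cd79a.

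**Figure D4:**
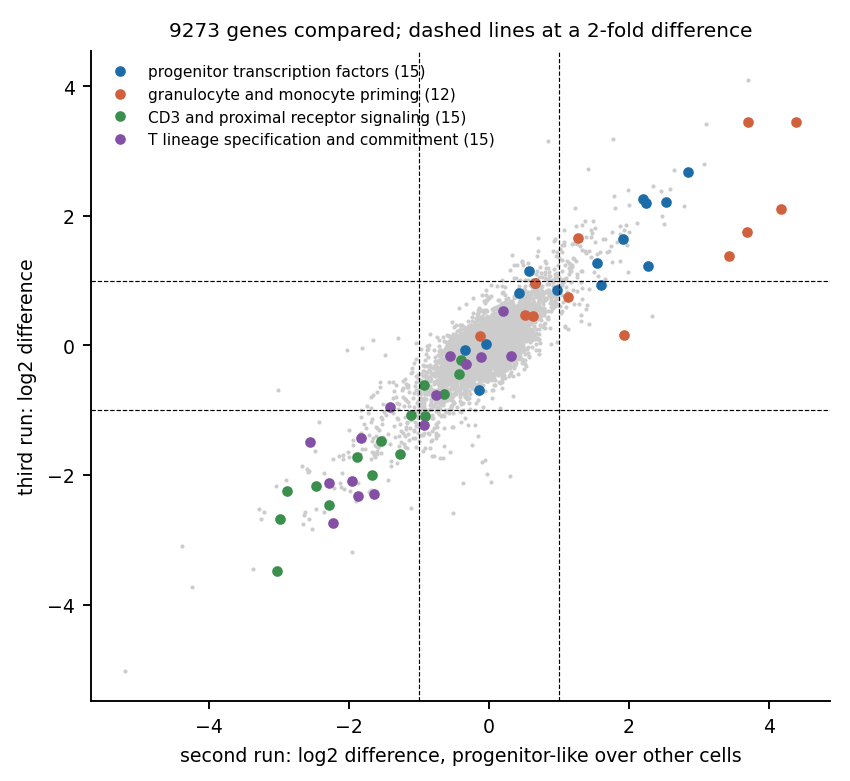
Log2 difference of progenitor-like over other cells for 9273 genes, in the second run (horizontal) and the third (vertical), with each grey point a gene and dashed lines at a 2-fold difference; coloured points are 4 gene lists, with the number of genes measured in brackets. Progenitor and granulocyte or monocyte genes reach the upper right corner and CD3 and T lineage genes the lower left, and 0 genes passed the limit in opposite directions in the runs.

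Genes of the Notch pathway and of the cell cycle did not pass the limit. In the Notch list 0 of 13 measured genes passed the limit in either direction. Notch1 stood at 89.9 and 191 CPM in members against 98.8 and 216 CPM, and Hes1, a direct Notch target, at 294 and 185 CPM against 290 and 137 CPM. Of the E protein list, 3 of 5 measured genes were lower (Id3, Tcf12 and Id2) and 0 higher, with a median of -1.05. Tcf12 was no longer past the limit without the members that held 2 or more granule genes. Tcf3, encoding E2A, stood at 169 and 67.1 CPM against 187 and 70.4 CPM. Among 42 S phase genes and 52 G2 and M phase genes, 0 passed the limit. Of the mast cell-type genes known from DN2 cells, 1 of 10 passed the minimum of 5 CPM, Cpa3, a mast cell carboxypeptidase, at 261 and 263 CPM against 270 and 142 CPM. In the first run it stood at 568 CPM in the 6 members (29 UMIs) against 53.3 CPM in other cells. Cpa3 stood at 307 and 366 CPM in members with Il2ra of the second and the third run against 211.5 and 83.1 CPM in members without.

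Markers of other cell types were read in full beside these results. The mature myeloid and dendritic list (15 genes) summed to 106 and 308 CPM in members of the second and the third run against 105 and 593 CPM, with Lyz2 the most abundant at 57.2 and 210 CPM. Its genes C1qa, C1qb, C1qc, S100a9 and Xcr1 were at 0 in members of both. Of 5 measured, Itgax was past the limit upward and Cd74 downward. Itgax, which encodes the CD11c of the gate, stood at 13.0 and 12.9 CPM in members against 0.799 and 1.36 CPM and met the minimum only through members. It was no longer past the limit without the members that held 2 or more granule genes. At least 2 of the 15 genes were seen in 14.9% and 38.3% of members against 2.63% and 10.1% of other cells, counted without thinning, and members were deeper. Of the Lyz2 UMIs of the third run, 81.6% lay in 5 cells. Of the plasmacytoid dendritic list the most abundant gene was Ly6d (422 and 510 CPM), which thymocytes also express, while Klk1 was at 0 in both runs and Siglech at 0 in the second. The list summed to 752 and 958 CPM against 1485 and 1443 CPM.

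The B cell list summed to 351 and 236 CPM against 2535 and 1672 CPM, with Ighm (275 and 174 CPM) most abundant. Of 2 endothelial genes measured, Egfl7 was past the limit upward, and of 2 stromal and epithelial genes Pdgfrb was past it upward and Epcam downward. The endothelial list summed to 200.5 and 200.1 CPM against 86.4 and 97.1 CPM, nearly all of it Egfl7 (117 and 105 CPM) and Pecam1, with Tek and Tie1 at 0. The stromal and epithelial list summed to 61.0 and 78.1 CPM against 48.4 and 61.8 CPM. It was Pdgfrb in the main (56.4 and 69.0 CPM), with 8 of 10 genes at 0, among them the collagens and Foxn1. The NK and innate lymphoid list summed to 474 and 413 CPM against 1638 and 1387 CPM, with Nkg7 most abundant and Ncr1 at 0, and the γδ list to 1161 and 712 CPM against 3980 and 1777 CPM, with Tcrg-C1 most abundant and no gene at 0. The megakaryocyte list stood higher in members, at 18.3 and 6.30 CPM against 0.896 and 0.759 CPM. Most of it was Itga2b (16.8 and 3.78 CPM in members), with Pf4, Gp1bb, Vwf and Ppbp at 0 in members. The erythroid list stood at 691 and 453 CPM against 179 and 36.7 CPM, most of it Hbb-bt. In summed counts such as these, fewer cells with a gene and less of its RNA per cell cannot be told apart.

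Il2ra divided the members into a group without it, as in DN1, and a group with it, as in DN2. The shares with an Il2ra UMI were 83.3% in the first run (5 of 6), 49.3% in the second (66 of 134, 40.5 to 58.0%) and 59.6% in the third (115 of 193, 52.3 to 66.6%). After thinning to 2000 UMIs they were 50%, 22.4% (15.6 to 30.4%) and 31.1% (24.6 to 38.1%), so the share depends on the depth of the cells. Members with Il2ra were deeper, with medians of 9740.5 against 7806.5 UMIs in the second run and 17722 against 13408.5 UMIs in the third. Flt3 sat with the members without Il2ra in the third run, where 29 of 33 Flt3 cells had no Il2ra, beside 78 of all 193 members. In the second run 13 of 22 had none, close to the share of all members there (68 of 134). As summed levels, Flt3 and Lmo2, both genes of the rule, were lower with Il2ra by at least 2-fold in both runs. Lmo2 was seen in 19 members with Il2ra and 35 without in the second run, and in 14 and 40 in the third.

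Between these groups 34 of 9121 genes were higher with Il2ra (0.373%) and 17 lower (0.186%). These counts moved with the settings, to 113 and 84 with a pseudocount of 1 CPM. With cells of the members' UMI quartiles alone they were 61 and 21, of which 27 and 7 were counted before. T lineage genes were on the higher side, with 5 of 14 past the limit (Bcl11b, Tcf7, Gata3, Ets1 and Thy1), 0 lower and a median of 0.97. Bcl11b stood at 154 CPM in members with Il2ra of the second run (126 to 186 CPM) against 12.7 CPM without (5.49 to 25.1 CPM). In the third run it stood at 320 CPM (295 to 345 CPM) against 13.9 CPM (7.92 to 22.5 CPM). Tcf7, a Notch-induced factor, stood at 259 and 281 CPM against 92.2 and 116 CPM, and Gata3 at 80.5 and 78.3 CPM against 27.0 and 26.0 CPM. Bcl11b was thus the most sharply divided of the 3, and Tcf7 was well above 0 in members without Il2ra.

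Of CD3 and proximal signaling genes 5 of 14 were higher with Il2ra (Cd3g, Cd3d, Cd3e, Lat and Themis) and 0 lower, and of the γδ list 3 of 8 were higher, the constant regions Tcrg-C1, Tcrg-C2 and Tcrg-C4. Cd3g stood at 441 and 452 CPM with Il2ra against 65.2 and 27.7 CPM, below the 3009 and 2284 CPM of DN3-like cells. These levels were uneven between members. The 15 and 12 members without a member neighbor, described further on, held Cd3g at 1037 and 1648 CPM and Bcl11b at 414 and 648 CPM. Of them, 14 and 12 carried Il2ra. Tcrg-C1 stood at 735 and 392 CPM against 151 and 24.2 CPM, in genes of near-identical constant regions whose reads may be split between copies. Il7r stood at 43.9 and 149 CPM against 14.3 and 35.5 CPM. Ptcra, the pre-T cell receptor chain, stood at 26.4 and 9.41 CPM with Il2ra and was 523 and 409 CPM in DN3-like cells, which were selected on it. Aqp11, Skap1, Fam169b, Ccdc109b and 1500009L16Rik were also among the 12 highest.

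On the lower side with Il2ra lay 4 of 15 granulocyte and monocyte genes and Irf8 alone among 18 progenitor factors. Irf8 stood at 20.5 and 35.7 CPM with Il2ra against 164 and 117 CPM without. Mpo stood at 117 and 110 CPM (92.9 to 146 and 96.5 to 126 CPM) against 510 and 316 CPM (456 to 569 and 284 to 350 CPM). Members with Il2ra thus still held Mpo well above the 1.01 and 0.624 CPM of DN3-like cells. Elane stood at 0 and 0.495 CPM with Il2ra against 315 and 106 CPM without. Elane and Prtn3 met the minimum only through the members without Il2ra. Spi1 stood at 133 and 79.8 CPM against 210 and 205 CPM and passed the limit in the third run alone. Kit did not divide them, at 71.7 and 122 CPM with Il2ra against 65.2 and 120.3 CPM without. Ccl3, a chemokine, stood at 11.7 and 42.1 CPM against 42.9 and 222.5 CPM.

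Since the 8 cells with all 4 granule genes lie without Il2ra, the counts were repeated without the members that held 2 or more of the 4 genes (19 in the second run, 18 in the third), a choice made after the data were seen. Then 45 genes were higher with Il2ra, among them the 34 counted before, and 20 lower, of which 9 were counted before. Prtn3, Elane and Ctsg left that side, which follows from that choice. The count of genes higher in members than in other cells went from 107 to 101, with 96 shared, and that of lower genes from 147 to 134, with 130 shared. Tcf12, Lck and Sox13 were among the genes that left the lower side. Against the Kit+ cells outside the rule, described further on, 83 genes were higher, 79 of them shared, and 61 lower, 60 of them shared, and Zap70 and Lck left the lower side.

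**Figure D5:**
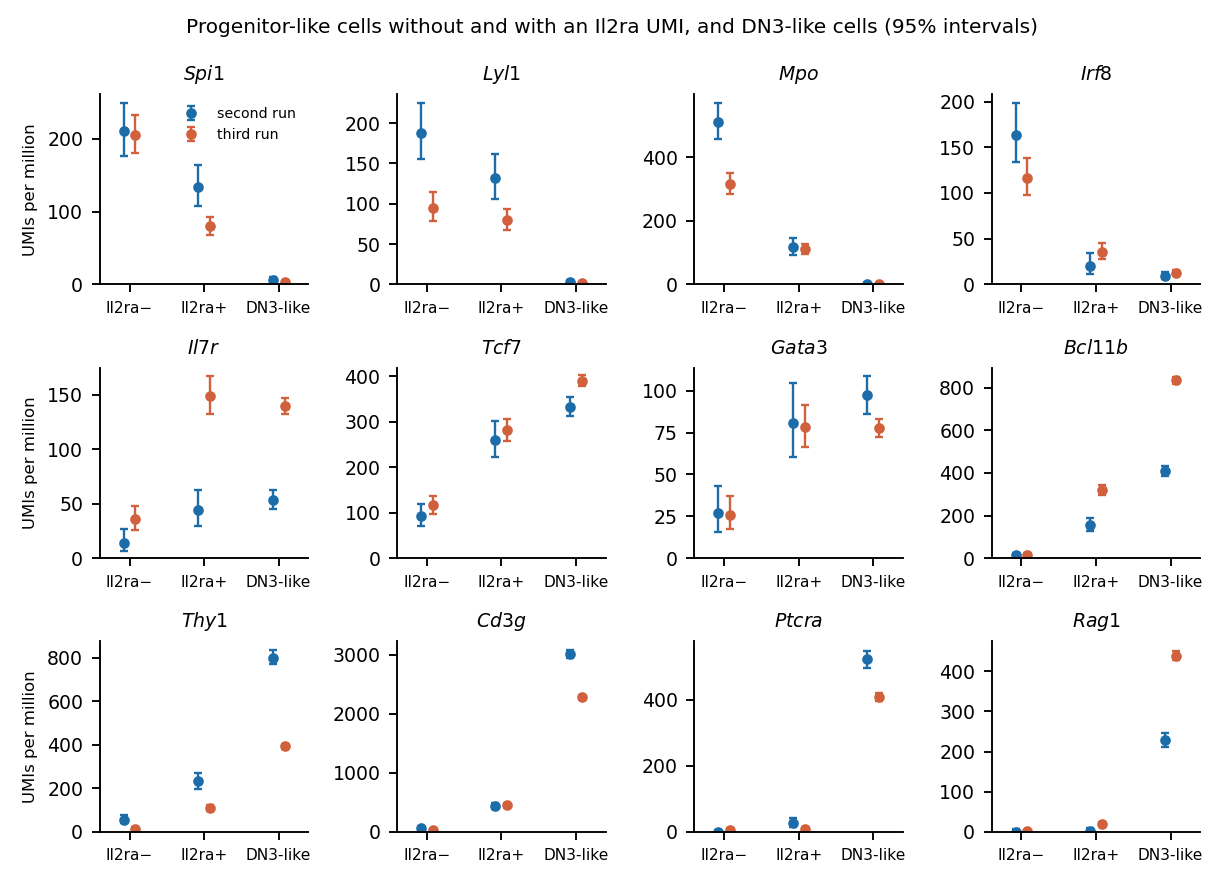
Levels of 12 genes in progenitor-like cells without Il2ra and with it and in DN3-like cells (Ptcra of at least 2 UMIs, Rag1 of at least 1 and no Cd34), in CPM from 0 with exact 95% intervals, for the second run (blue) and the third (orange). Spi1, Mpo and Irf8 are lower from left to right while Tcf7, Bcl11b and Cd3g are higher, and Ptcra and Rag1, which chose the DN3-like cells, are near 0 in both groups of progenitor-like cells.

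Members with Flt3, 13 of 22 and 29 of 33 of which had no Il2ra UMI, were set beside those without, so that this split in part repeats the one by Il2ra. They held Bcl11b at 31.1 CPM in the second run (13.4 to 61.3 CPM) and 42.7 CPM in the third (27.4 to 63.5 CPM), against 99.5 and 244 CPM in members without. Cd3g stood at 113 and 62.3 CPM against 297 and 348 CPM. Mpo was alike in the second run, at 299.6 against 307 CPM, and stood at 258 against 170 CPM in the third. Kit was lower with Flt3, at 42.8 and 96.1 CPM against 74.9 and 127 CPM, with overlapping intervals in each run. Flt3 is a gene of the rule and these groups are small, so the values are a description of the members by it.

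Members were also compared with cells outside the rule that had Kit and lacked Cd34, Trac and Cd79a, 590 in the second run and 1019 in the third. Against these 92 of 9155 genes were higher in members (1.005%) and 73 lower (0.797%). Of the progenitor factors 6 of 15 were higher (Spi1, Lyl1, Hhex, Bcl11a, Hoxa9 and Irf8), with Hoxa9 again over the minimum only through members. Of the granulocyte and monocyte list 4 of 12 were higher (Mpo, Prtn3, Tyrobp and Fcer1g) and 0 lower. Prtn3 was not past the limit without the members that held 2 or more granule genes. Both erythroid genes measured (Car2 and Hbb-bt), Egfl7 and Pdgfrb were also higher, and Epcam was lower. Lower were 6 of 15 T lineage genes and 9 of 15 CD3 and proximal genes. Spi1 stood at 170 and 125 CPM against 22.1 and 18.3 CPM, and Cd44 at 49.5 and 55.8 CPM against 12.1 and 13.4 CPM. Cd3e stood at 82.3 and 70.9 CPM against 539 and 403 CPM, and Bcl11b at 86.1 and 208 CPM against 379 and 633 CPM. Il2ra was present in both, at 175 and 227 CPM in members and 280 and 354 CPM in the Kit+ cells. These comparisons share the members with those above and are not independent of them.

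Cells chosen on a handful of genes need not lie together, so the 20 nearest cells of each member were found in its own run from the 2000 most variable genes without the rule genes. Of the neighbors of members, 39.5% in the second run and 49.6% in the third were members, beside 1.51% and 2.57% of all cells. In the first run the share was 0.833%, from a single member neighbor. Members without Il2ra had 48.9% and 71.0% of members among their neighbors and members with Il2ra 29.8% and 35.1%. At least 10 member neighbors were found for 53 of 134 members and 121 of 193. A further 15 and 12 members had none, of which 14 and 12 carried Il2ra and 15 and 12 carried Bcl11b. Their Spi1 level was 25.5 and 22.0 CPM and their Cd3g level 1037 and 1648 CPM, although most members with Bcl11b (36 and 85 in all) were not among them. Cells with Kit outside the rule made up 11.2% and 23.9% of the neighbors of members, beside 6.67% and 13.6% of all cells. Cells with Cd34 but without Mef2c, Lmo2 and Flt3 made up 21.6% and 3.13%, beside 2.55% and 0.812% of all cells.

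At 2000 UMIs per cell, UMIs of the cell cycle lists were seen in most members and in most other cells. The most abundant gene of the G2 and M phase list was Hmgb2. It stood at 1601 and 1203 CPM in members of the second and the third run, against 2135 and 1334 CPM in other cells. The shares below are therefore not shares of cycling cells. After thinning to 2000 UMIs, 77.6% of members in the second run (69.6 to 84.4%) and 83.4% in the third (77.4 to 88.4%) held 3 or more UMIs of the 52 G2 and M phase genes. The shares of other cells were 75.7% and 82.0%, within those intervals. The Kit+ cells outside the rule had 91.4% and 92.5%. Members with Il2ra had 86.4% and 87.8%, and members without 69.1% (56.7 to 79.8%) and 76.9% (66.0 to 85.7%), with overlapping intervals in each run. For S phase genes the shares were 71.6% (63.2 to 79.1%) and 71.5% (64.6 to 77.8%) in members against 60.9% (59.8 to 61.9%) and 58.1% (57.0 to 59.3%) in other cells, without overlap of the intervals. The Kit+ cells outside the rule had 81.7% and 76.5%, the latter within the interval of the members. Members with Il2ra had 80.3% and 77.4%, while members without had 63.2% (50.7 to 74.6%) and 62.8% (51.1 to 73.5%), intervals that hold the shares of other cells. Unthinned, 99.3% and 100% of members held 3 or more G2 and M phase UMIs. When cells were thinned to 1000 UMIs, 47.0% and 50.3% did, so this share depends on depth.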

How the data were processed

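Per the labels and the study's methods, single cells were captured on the 10x Genomics platform and the authors deposited raw UMI counts per gene and cell from Cell Ranger (version 4.0.0 in the file header of the third run); the submitters' processing notes also name R 3.6.3 and Seurat 2.3. The notes name the build mm10 (GRCm38). The study's methods name the kits V2 and V3.1 and, beside Cell Ranger 4.0.0, an older version of it; which of these served the first and second run is not given in the sources used here. The members and gene lists were chosen with earlier results of these data known. Cells were kept with 500 to 5000 genes and at most 7% mitochondrial UMIs. Counts were summed per run and group, scaled to CPM and compared as log2(CPM + 10) over 27700 genes matched by Ensembl ID with a unique symbol, of which those with a mean of at least 5 CPM were used, with Python 3.11.15, numpy 2.4.6, scipy 1.17.1 and scanpy 1.11.5. The text names genes of fixed lists and the 12 with the largest mean difference in each direction, without rule, mitochondrial and ribosomal protein genes. Cell types without a deposited annotation were not named beyond the rules given. Doublets were kept; an alternative removed the highest Scrublet scores (0.8% per 1000 cells), which marked 0, 9 and 22 members. Poisson counts were simulated without spread between cells, with 200 of the more abundant genes changed 4-fold. Of these, 195 were recovered for members over other cells and 175 for the split by Il2ra, with 0 unchanged genes past the limit. Genes whose UMIs lie in few cells, such as Elane, are not covered by that simulation. Some genes are not reported here.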

Additional observations from a re-analysis of the deposited data

Results flagged for a closer look

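In the third run 59 cells that met the rule were removed by the limits on cells, of 1358 removed (4.34%, exact interval 3.32 to 5.57%), where the first and second run had 0 of 11 and 0 of 35. They were picked out because they lie in cells that the comparisons do not use. Of the 59, 58 had more than 5000 genes, which is 10.5% of the 552 such cells, and 1 exceeded the mitochondrial limit. The 58 cells had a median of 31450 UMIs and 5416.5 genes, and 82.8% held Il2ra, against 59.6% of members. Their Spi1 level was 93.9 CPM (80.6 to 109 CPM) against 125 CPM in members, their Kit level 72.8 against 122 CPM, and their Tyrobp level 269 against 507 CPM. Bcl11b was alike, at 217 CPM (196 to 239 CPM) against 208 CPM. Mki67, a cycling gene, stood at 449 against 239 CPM and Top2a at 705 against 426 CPM. The part of doublets and of cycling in these values was not tested.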

How the results depend on the processing

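Of 140 alternative values, 91 stayed within the spread set for them, 48 moved past it and 1 turned. No paired analysis was possible because no result comes from a test: the members were chosen on these counts, and the runs are different sorts without replicate numbers, within each of which members and other cells were compared.

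The share of members followed depth and the Cd34 limit: after thinning to 2000 UMIs it was 0% for the first run, 0.339% for the second and 0.415% for the third, and with 2 or more Cd34 UMIs 0, 0.904 and 1.57%. Without an upper limit on genes, chosen after seeing the data, it was 3.11% in the third run. The share of members with Il2ra was 22.4 and 31.1% after thinning, 37.3 and 50.8% for 2 or more Il2ra UMIs and 36.2 and 44.9% among members with 2 or more Cd34 UMIs (second and the third run).

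Counts of genes past the limit moved with the pseudocount and with the runs used. With 1 CPM in place of 10, members over other cells gave 242 higher and 328 lower, the split by Il2ra 113 and 84, and the Kit+ comparison 218 and 179. With 20 CPM they were 68 and 89, 21 and 8, and 54 and 45. With cells of the members' UMI quartiles alone, members over other cells gave 121 higher (86 shared with the 107 counted before) and 100 lower (66 of 147), the Il2ra split 61 (27 of 34) and 21 (7 of 17), and the Kit+ comparison 100 (77 of 92) and 85 (52 of 73). Leaving out the second or the third run, so that 1 run decided, gave 143 to 162 higher and 218 to 224 lower for members over other cells, 79 to 125 higher and 78 to 99 lower for the Il2ra split, and 128 to 145 higher and 109 to 130 lower for the Kit+ comparison. This is by construction, since a gene then needs to pass in 1 run.

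The log2 difference of Kit was -0.58 in the first run within the members' UMI quartiles, where 2 members with 0 Kit UMIs were left. With a pseudocount of 1 it was 1.86 and 2.25 for Kit and 3.42 and 3.37 for Spi1 in the second and the third run. Within the UMI quartiles Spi1 differed by 2.57 and 2.43, and by 2.65 in the second run without the members that held 2 or more granule genes, a choice made after seeing the data. The share of members among neighbors was 44.0 and 51.2% with the rule genes kept and 52.4% with 10 neighbors in the third run. The share of members with G2 and M phase UMIs was 47.0 and 50.3% when thinned to 1000 UMIs and 86.6 and 91.7% for 2 or more UMIs. The causes of these changes were not tested. Removing the marked doublets, other mitochondrial limits and other numbers of principal components left their values within that spread.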
